A study of Mus musculus with 6 samples.

Results

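Receptors for transmitters and peptides that nerve endings release were described in epidermal stem cells sorted from denervated and normal back skin of the same mice. The set was chosen by gene symbol alone and takes in the adrenergic, muscarinic, nicotinic, P2X, P2Y, adenosine, tachykinin, somatostatin, galanin, VIP, neuropeptide Y and opioid receptors, Calcrl, and the 3 Ramp genes that partner it. It matches 71 of the 24982 rows of the count matrix, in 13 families, and 70 of them are described here. Poly(A) RNA was sequenced in 6 libraries. The denervated group held 3 libraries from the left back, whose skin nerves had been dissected out 4 weeks before. The normal group held 3 libraries from the right back of the same 3 mice (animals 890, 892 and 899), with the nerves in place. All mice carried the Lgr6-EGFP-Ires-CreERT2 knock-in and the R26loxP-stop-loxP-tdTom reporter, and received 20 µg of tamoxifen on postnatal day 42, so that cells expressing Lgr6 and their descendants were red. They also received ketamine and xylazine, an alpha-2 adrenergic agonist, as anaesthetic and meloxicam as analgesic, and were housed singly. Cells were sorted for the label and for Itga6 (CD49f), an integrin of basal keratinocytes. Nerve loss cannot be told apart from dissection, because no sham operation of the right back is mentioned in the labels. Nor can it be told apart from body side, because all denervated libraries came from the left back and all normal ones from the right. Age at sampling is not given in the sources used here.

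Total counts were 9610071, 14021730 and 13232950 in the denervated libraries and 26167593, 20724439 and 13801154 in the normal ones, in the order of animals 890, 892 and 899, which is kept below. In CPM (counts scaled to a common library total with TMM factors), 3 counts amounted to 0.113 to 0.323 across the libraries, a floor that covers counting error only. Markers of the labelled cell type were high. Krt5, the basal keratin, averaged 16500 TPM (transcript level scaled for gene length and library total), Krt14 18600 TPM, Itga6 472 TPM and Lgr6 45.5 TPM over the 6 libraries. None of the 8 basal keratinocyte markers passed the test described below, with Itga6 and Krt15 closest (adjusted p = 0.266 and 0.565).

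The skin is served by sensory fibres, which release the peptides CGRP and substance P, and by sympathetic fibres, which release noradrenaline, ATP and neuropeptide Y. Keratinocytes are known to make several of the matching receptors and some of the transmitters themselves. Most of these receptors act through G proteins. Those coupled to Gs raise cAMP, those coupled to Gi lower it, and those coupled to Gq release calcium, while nicotinic and P2X receptors are ion channels. The values here are mRNA levels, and receptor protein or response was not measured.

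Of the 70 genes, 21 passed the filter on low counts, against 49.3% of all rows, and 12 had a mean of at least 1 TPM. Another 31 genes had at least 1 count and 18 had none in any library. Genes that passed lay in 9 of the 13 families. The 5 somatostatin, 3 galanin, 3 opioid and 3 tachykinin receptors all stayed below the filter, and the opioid receptors were at 0 in all 6 libraries. The bar chart of detection by family shows these counts.

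**Figure D1:**
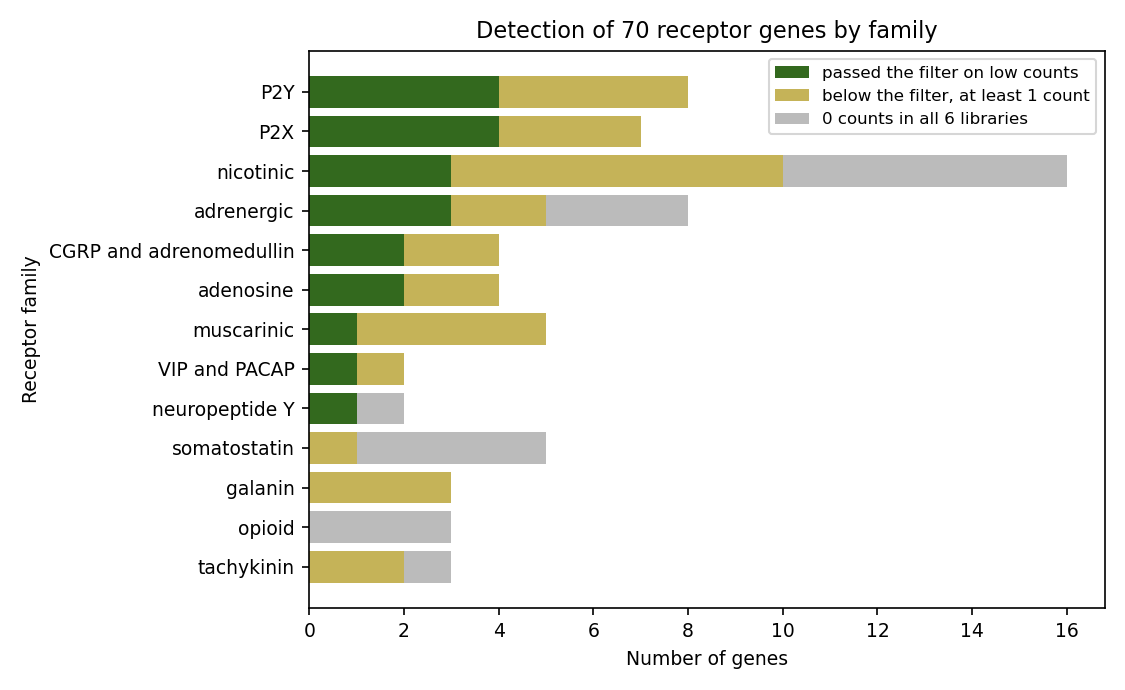
Number of receptor genes (x axis) in each of 13 families (y axis), split by colour into genes that passed the filter on low counts, genes below it with at least 1 count, and genes with 0 counts in all 6 libraries. The P2X and P2Y families each have 4 genes that passed, and the opioid family has none with a count.

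Among the genes described, P2ry1, Adora2b and Ramp3 had the highest levels, and each averaged above 10 TPM. P2ry1 averaged 38.1 TPM over the 6 libraries, above 70.2% of all genes tested, Adora2b averaged 25.9 TPM and Ramp3 12.6 TPM. The other 9 genes at or above 1 TPM were Calcrl, Npy1r, P2rx4, P2rx7, Adrb3, P2ry10, Adrb1, Chrnb1 and P2rx2, in falling order of level, from 6.25 to 1.20 TPM.

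**Figure D2:**
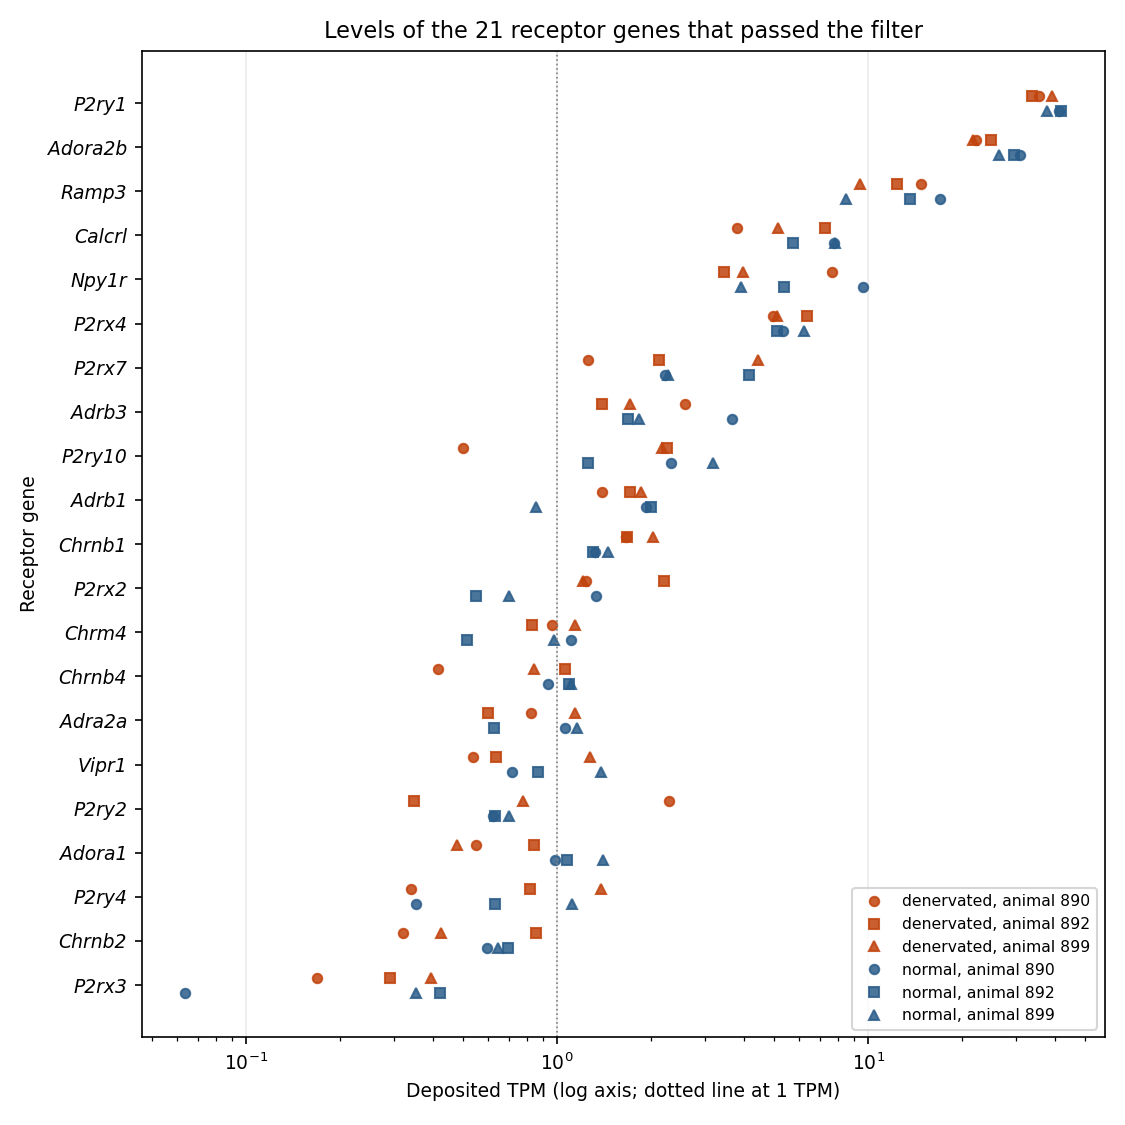
Deposited TPM (x axis, log scale) of the 21 receptor genes that passed the filter (y axis, ordered by mean), 1 point per library, with the denervated libraries above the normal ones. P2ry1 lies between 33.7 and 41.7 TPM in all 6 libraries, and from Chrm4 downwards the genes average less than 1 TPM.

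None of the 21 receptor genes passed the test of denervated against normal, which was edgeR's quasi-likelihood test with the animal as a block and Benjamini-Hochberg adjustment over all 12310 genes tested. Over all genes 3.46% were called (2.88% higher and 0.577% lower). The smallest adjusted p among the receptors was 0.182. At an unadjusted p below 0.05 there were 2, Adora2b and Adora1, both lower, against 18.2% of all genes (10.4% higher and 7.86% lower). DESeq2 with the same block gave an adjusted p for 2 of the 21, and limma on log2(TPM + 1) tested 12, and neither called any. As limma called hardly any gene at all (given below), its result says little about the receptors. The fitted log2 fold change was below 0 for 13 of the 21 and above 0 for 8, with a median of −0.16 against −0.02 over all genes tested, where 54.7% were below 0. In bulk RNA, fewer cells of a type and less RNA per cell cannot be told apart.

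**Figure D3:**
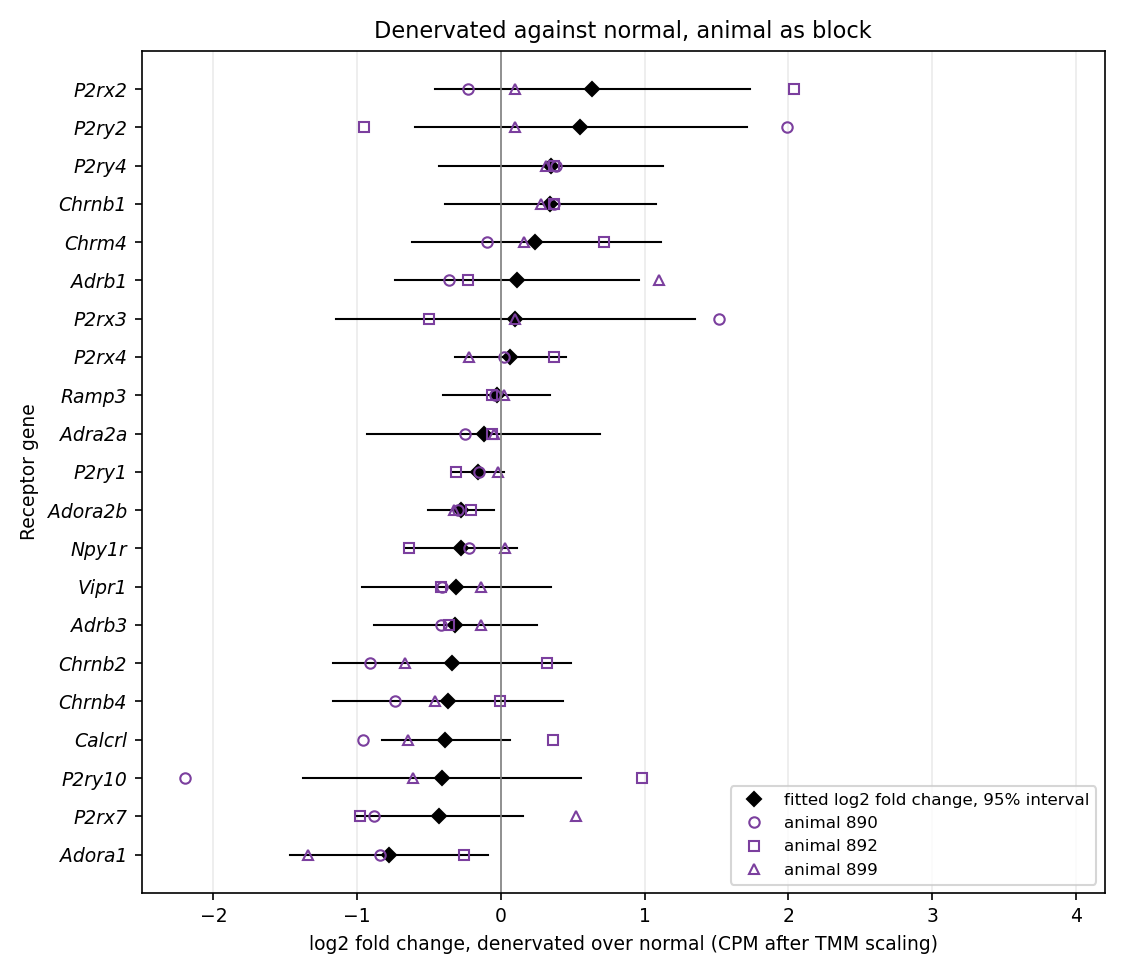
Log2 fold change of CPM, denervated over normal (x axis), for the 21 receptor genes that passed the filter (y axis). Black diamonds and lines are the fitted value with the animal as block and its 95% interval, and open symbols are the differences within each animal. The intervals of 19 genes hold 0, and those of Adora2b and Adora1 lie below 0 before adjustment.

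Adrenergic receptors bind the catecholamines of sympathetic fibres and of the blood. Adrb3, the beta receptor best known from fat, stood at 2.57, 1.39 and 1.72 TPM on the denervated side and 3.64, 1.69 and 1.83 TPM on the normal side. It was lower on the denervated side in all 3 animals but the groups overlapped, with a log2 fold change of −0.32 ± 0.26 SE (adjusted p = 0.563). In the annotation, 24.9% of the exonic bases of Adrb3 lie opposite an antisense gene, and the strand setting of the counts is not given in the sources used here.

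Adrb1, the beta receptor best known from the heart, stood at 1.39, 1.72 and 1.86 TPM in denervated and 1.93, 2.00 and 0.857 TPM in normal libraries (adjusted p = 0.913). Adra2a, coupled to Gi, stood at 0.825, 0.600 and 1.14 TPM in denervated and 1.06, 0.628 and 1.16 TPM in normal libraries (adjusted p = 0.899). The groups overlapped in both genes. The alpha-1 receptors, coupled to Gq, were at or near 0, with 2 counts of Adra1a in 1 library and none of Adra1b and Adra1d. Adra2b had 2 counts and Adra2c none.

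Adenosine is formed outside cells from released ATP. Adora2b, its low-affinity receptor, coupled to Gs (mm10 build, as for the positions below, chromosome 11, 62248984 to 62266453, plus strand), had 22.2, 24.9 and 21.8 TPM on the denervated side and 30.9, 29.4 and 26.4 TPM on the normal side. Every denervated library lay below every normal one. In CPM the mean was 22.4 ± 2.39 in denervated and 27.2 ± 1.97 in normal libraries (SD, n = 3 each). The log2 fold change was −0.28 ± 0.11 SE (unadjusted p = 0.0219, adjusted p = 0.182), with differences of −0.30, −0.21 and −0.33 in the 3 animals.

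Adora1, the adenosine receptor that lowers cAMP through Gi (chromosome 1, 134199223 to 134235431, minus strand), was scarcer, at 0.550, 0.843 and 0.478 TPM in denervated and 0.983, 1.08 and 1.40 TPM in normal libraries. These rest on 16, 38 and 21 counts on the denervated side and 82, 71 and 57 on the normal side. It too did not overlap between the groups, with a log2 fold change of −0.78 ± 0.32 SE (95% interval −1.47 to −0.09), but it did not pass (adjusted p = 0.211). Leaving out animal 899 gave −0.52 (unadjusted p = 0.208, adjusted p = 0.499). Mybph shares 1162 exonic bases with it on the opposite strand and had 32 counts in all, against 285 for Adora1.

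In CPM, the denervated libraries all lay below all normal ones for 3 of 21 receptors, against 9.21% of all genes tested. These were Adora2b, Adora1 and P2ry1. No receptor lay the other way in CPM, against 9.76%. A total of 7 were lower in all 3 animals, against 21.4%, and 2 were higher in all 3, against 19.3%. Adora2a, which couples to Gs like Adora2b, stayed below the filter with 6 to 14 counts per library. Adora3, coupled to Gi, had 5, 2 and 6 counts in denervated and 0, 1 and 0 counts in normal libraries. It was below the filter and not tested, and 779 of its exonic bases are shared with Tmigd3 on the same strand.

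Nucleotide receptors respond to ATP, ADP or UTP from nerve endings or damaged cells. P2ry1, the ADP receptor coupled to Gq, stood at 35.5, 33.7 and 39.1 TPM on the denervated side and 41.0, 41.7 and 37.7 TPM on the normal side. In CPM the groups did not overlap, at 70.3 ± 3.26 in denervated and 78.6 ± 4.13 in normal libraries (SD, n = 3 each). The log2 fold change was −0.16 ± 0.08 SE, with a 95% interval from −0.34 to 0.02, and did not pass (adjusted p = 0.328). Without animal 892 it was −0.07 (adjusted p = 0.911). In the deposited TPM the highest denervated value, 39.1, lay above the lowest normal one, 37.7.

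P2ry1 lies on chromosome 3 (61002795 to 61008982, plus strand), and P2ry14, P2ry13 and P2ry12 lie before it on that chromosome (59113855 to 59262871 together, all minus strand). On the opposite strand, Gm37035 shares 23.1% of the exonic bases of P2ry1. Over the 6 libraries P2ry1 averaged 38.1 TPM (7436 counts in all), P2ry14, a receptor for UDP-sugars, averaged 0.400 TPM (33 counts), and the ADP receptors P2ry12 and P2ry13 had 2 counts and 1 count. On chromosome 9, Chrnb4 (55028154 to 55048779, minus strand) averaged 0.910 TPM (187 counts) and the adjoining Chrna3 and Chrna5 had none. The 250 bases before the start of P2ry1, P2ry12, P2ry13, Chrnb4 and Chrna3 are shown because these genes of the same chromosomes and families differed in level (RefSeq sequences, GRCm38.p6, 5′ to 3′ on the strand of the gene, CpG pairs in capitals). They lie at chr3:61002535-61002784 (plus strand), chr3:59262986-59263235, chr3:59210883-59211132, chr9:55048545-55048794 and chr9:55026563-55026812 (the other 4 on the minus strand). The RefSeq start of Chrnb4 lies inside the GENCODE gene.
P2ry1: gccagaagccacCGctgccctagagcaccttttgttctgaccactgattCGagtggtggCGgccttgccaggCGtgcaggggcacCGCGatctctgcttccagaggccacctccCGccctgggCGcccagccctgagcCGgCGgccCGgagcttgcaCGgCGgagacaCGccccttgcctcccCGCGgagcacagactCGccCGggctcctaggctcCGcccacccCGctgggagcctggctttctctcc
P2ry12: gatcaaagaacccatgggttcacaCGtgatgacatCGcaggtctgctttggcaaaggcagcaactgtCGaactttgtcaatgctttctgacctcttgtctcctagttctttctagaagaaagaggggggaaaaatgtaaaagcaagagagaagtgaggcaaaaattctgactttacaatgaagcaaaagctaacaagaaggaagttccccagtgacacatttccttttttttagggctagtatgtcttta
P2ry13: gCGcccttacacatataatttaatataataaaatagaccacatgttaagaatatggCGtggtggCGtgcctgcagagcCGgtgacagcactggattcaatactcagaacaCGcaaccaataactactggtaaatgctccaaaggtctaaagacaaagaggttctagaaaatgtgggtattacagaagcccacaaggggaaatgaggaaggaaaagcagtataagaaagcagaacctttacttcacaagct
Chrnb4: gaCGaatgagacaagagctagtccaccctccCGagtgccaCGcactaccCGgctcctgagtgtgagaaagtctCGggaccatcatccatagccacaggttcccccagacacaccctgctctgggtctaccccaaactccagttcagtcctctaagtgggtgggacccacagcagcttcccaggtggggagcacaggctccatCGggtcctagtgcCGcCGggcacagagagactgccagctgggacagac
Chrna3: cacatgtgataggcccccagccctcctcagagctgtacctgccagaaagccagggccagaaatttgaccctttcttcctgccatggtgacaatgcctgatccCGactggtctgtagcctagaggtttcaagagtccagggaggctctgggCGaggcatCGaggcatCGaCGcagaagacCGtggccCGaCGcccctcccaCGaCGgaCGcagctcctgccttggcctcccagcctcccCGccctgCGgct

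These windows hold 20 CpG pairs for P2ry1, against 3 for P2ry12 and 5 for P2ry13, and 8 for Chrnb4, against 13 for Chrna3. Among the genes shown, the one with the highest TPM thus had more CpG pairs than the others on chromosome 3. On chromosome 9 it had fewer than Chrna3. The windows of P2ry14 and Chrna5, not shown, held 4 and 3 CpG pairs, so Chrnb4 had more than Chrna5. RefSeq starts were matched by symbol for 51 of the 70 genes, taking the first listed start. Of the 18 matched genes that passed the filter, 72.2% had 10 or more CpG pairs (CG on either strand) in this window, with a median of 13.5. Of the 33 below it, 33.3% did, with a median of 5. The shares over all matched genes were 75.1% of those that passed and 21.6% of those below. These counts describe the letters of the window alone.

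Among the other P2Y genes, P2ry10, a receptor of lymphocytes for lysophosphatidylserine, was uneven, at 0.498, 2.26 and 2.17 TPM in denervated and 2.33, 1.26 and 3.17 TPM in normal libraries (adjusted p = 0.679). P2ry2, a receptor for ATP and UTP, was at 2.29 TPM in the denervated library of animal 890 and between 0.346 and 0.777 TPM in the other 5 libraries. Its log2 fold change was 0.55 ± 0.54 SE with all animals (adjusted p = 0.632) and −0.38 without animal 890. P2ry4, a further receptor for UTP, was at 0.339, 0.817 and 1.38 TPM in denervated and 0.352, 0.631 and 1.12 TPM in normal libraries (adjusted p = 0.656). P2ry6, a UDP receptor, had 2 counts in all.

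The P2X channels open on binding ATP. P2rx4, a broadly expressed subunit, stood at 4.93, 6.35 and 5.10 TPM on the denervated side and 5.33, 5.08 and 6.20 TPM on the normal side (log2 fold change 0.06 ± 0.18 SE, adjusted p = 0.889). P2rx7, which needs high ATP and is known from immune cells, was uneven, at 1.26, 2.12 and 4.41 TPM in denervated and 2.22, 4.13 and 2.28 TPM in normal libraries. Animals 890 and 892 were lower on the denervated side and animal 899 was higher. Its log2 fold change was −0.43 ± 0.27 SE (adjusted p = 0.428). Leaving out animal 899 gave −0.94, which passed (adjusted p = 0.0237), and leaving out animal 892 gave −0.11 (adjusted p = 0.951).

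P2rx2 and P2rx3, the subunits best known from sensory neurons, averaged 1.20 and 0.282 TPM. P2rx2 had 2.20 TPM in the denervated library of animal 892, against 0.549 TPM in the normal library of that animal, and its log2 fold change was 0.63 ± 0.51 SE with all animals (adjusted p = 0.547) and −0.05 without animal 892. P2rx3 rests on 4, 10 and 12 counts in denervated and 4, 22 and 12 counts in normal libraries (adjusted p = 0.947) and shares 51 exonic bases with Ssrp1 on the opposite strand, a gene with 14857 counts. P2rx5 stayed below the filter with 3 to 15 counts, and P2rx1 and P2rx6 with 1 and 3 counts in all.

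CGRP, the main vasoactive peptide of sensory fibres, binds Calcrl when Ramp1 is its partner, while Ramp2 or Ramp3 turns Calcrl into a receptor for adrenomedullin. Calcrl (chromosome 2, 84330626 to 84425411, minus strand) stood at 3.78, 7.25 and 5.14 TPM in denervated and 7.77, 5.72 and 7.81 TPM in normal libraries. It was lower on the denervated side in animals 890 and 899 and higher in animal 892, with a log2 fold change of −0.39 ± 0.21 SE (adjusted p = 0.346). Leaving out animal 892 gave −0.78, which passed (adjusted p = 0.0207), and leaving out animal 890 gave −0.12 (adjusted p = 0.821).

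Of its partners, Ramp3 (chromosome 11, 6658521 to 6677475, plus strand) was the abundant one, at 14.8, 12.4 and 9.39 TPM on the denervated side and 17, 13.6 and 8.51 TPM on the normal side. The sides were close within each animal (log2 fold change −0.03 ± 0.17 SE, adjusted p = 0.950). Ramp1 had 0, 9 and 1 counts in denervated and 12, 4 and 6 counts in normal libraries, and averaged 0.220 TPM over the 6 libraries, against 12.6 TPM for Ramp3. Ramp2 had 2 to 5 counts per library, and 33.4% of its exonic bases are shared with Vps25 on the same strand, so even these few counts are uncertain. The mRNA for the adrenomedullin pair Calcrl and Ramp3 was thus above the filter, and that of the CGRP partner Ramp1 below it.

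Calcrl and Ramp3 are also abundant in blood vessels. The 11 endothelial markers summed to 4.52 to 5.09 CPM in denervated and 4.62 to 6.58 CPM in normal libraries, while Calcrl alone ran from 8.94 to 17.5 CPM in denervated and from 13.6 to 18.3 CPM in normal libraries. The part of blood vessel cells was not tested beyond these values. The defining markers Cdh5, Emcn and Cldn5 were at 0 in all 6 libraries and Kdr had 2 counts, while Flt1 and Pecam1 were the markers with the smallest p (adjusted p = 0.333 and 0.561).

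Neuropeptide Y of sympathetic fibres binds Npy1r, coupled to Gi (chromosome 8, 66697192 to 66706792, plus strand), which stood at 7.63, 3.43 and 3.97 TPM in denervated and 9.63, 5.36 and 3.91 TPM in normal libraries. Both libraries of animal 890 were above all others. The groups overlapped (log2 fold change −0.28 ± 0.18 SE, adjusted p = 0.442, and −0.09 without animal 892). In the same fit the difference between animals was called for Npy1r (adjusted p = 0.0120), whose mean CPM was 2.20-fold higher in animal 890 than in animal 899. It was the 1 receptor of 21 called there, against 3.78% of all genes. Ramp3 followed, 1.87-fold higher in animal 890 than in animal 899 (adjusted p = 0.0720). Each animal has 2 libraries, and what sets the animals apart is not given in the labels. Npy2r had no counts.

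Vipr1, a receptor for VIP coupled to Gs, was low, at 0.538, 0.637 and 1.28 TPM in denervated and 0.717, 0.866 and 1.38 TPM in normal libraries (adjusted p = 0.639). It was lower on the denervated side in all 3 animals, though the groups overlapped. Vipr2 had 2 counts in denervated and 13 in normal libraries, 10 of them in 1 library. The receptors of substance P and related tachykinins stayed below the filter, as Tacr1 had 7 counts, Tacr3 1 and Tacr2 none over the 6 libraries. The galanin receptors had 7 counts together, and the only somatostatin receptor with a count was Sstr2, with 1.

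Acetylcholine receptors were sparse, and the nicotinic channel subunits were detected unevenly. Nicotinic channels are rings of subunits in which alpha subunits form the main part of the binding site. The beta subunits Chrnb1, of the muscle receptor, and Chrnb2 and Chrnb4, of neuronal receptors, passed the filter with 587 counts together. None of the 9 alpha subunits passed. They had 20 counts together, with no single gene above 6 in a library, and 4 of them had none. Chrna7, which forms channels by itself, had 0, 3 and 3 counts in denervated and 6, 0 and 0 counts in normal libraries, and Chrna9, known from keratinocytes, had 3 in all.

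Chrnb1 was at 1.66, 1.68 and 2.04 TPM on the denervated side and 1.32, 1.30 and 1.46 TPM on the normal side. It was higher in all 3 animals, and in TPM the groups did not overlap, but in CPM they did (log2 fold change 0.34 ± 0.34 SE, adjusted p = 0.642). Chrnb4 ran from 0.413 to 1.06 TPM in denervated and from 0.935 to 1.11 TPM in normal libraries (log2 fold change −0.37 ± 0.37 SE, adjusted p = 0.645). Chrnb2 ran from 0.320 to 0.857 TPM in denervated and from 0.593 to 0.693 TPM in normal libraries (log2 fold change −0.34 ± 0.39 SE, adjusted p = 0.686). Chrnb2 lies opposite Adar over 1365 exonic bases (16.3%), and Adar had 3936 counts, so its counts are uncertain as to strand. The 3 markers of skeletal muscle with the most counts, Acta1, Ckm and Mb, had 31, 11 and 8 counts in all, and Musk, the partner of the muscle receptor, had none.

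Of the muscarinic receptors, Chrm4, coupled to Gi, alone passed the filter, at 0.966, 0.829 and 1.14 TPM in denervated and 1.11, 0.513 and 0.980 TPM in normal libraries (adjusted p = 0.797). Chrm3, the Gq-coupled form that keratinocytes are known to use, had 0, 0 and 6 counts in denervated and 3, 4 and 5 counts in normal libraries.

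P2rx7 and P2ry10 are receptors that immune cells of the epidermis also make, and markers of such cells were detected in the libraries. The 14 Langerhans and myeloid cell markers include Epcam of keratinocytes. They summed to 375 to 433 CPM in denervated and 315 to 402 CPM in normal libraries. The sum was higher on the denervated side in all 3 animals. Epcam alone averaged 229 CPM in denervated and 203 CPM in normal libraries, against 401 and 351 CPM for the sum. None of the markers passed, with Cd74 and Epcam closest (adjusted p = 0.198 and 0.260). Cd207, which defines Langerhans cells, averaged 17.4 CPM in denervated and 15.4 CPM in normal libraries. The 10 T cell markers summed to 96.5 to 165 CPM in denervated and 109 to 132 CPM in normal libraries. Thy1 gave most of that sum, on average 124 CPM in denervated and 111 CPM in normal libraries. Cd3e averaged 2.32 CPM in denervated and 1.24 CPM in normal libraries (adjusted p = 0.232), and Cd8a had no counts. The part of these cells in the values of P2rx7 and P2ry10 was not tested.

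Defining markers of nerve cells were at or near 0. Of 17 markers of Schwann cells and neurons, Snap25, Nefl, Rbfox3 and Scn10a were at 0 in every library and Sox10 had 1 count. The sum of that list was 277 to 322 CPM in denervated and 228 to 242 CPM in normal libraries, and 2 of its 7 tested genes rose, Mbp and Pmp22, both myelin genes (adjusted p = 0.0145 each). Mbp averaged 125 CPM in denervated and 95.6 CPM in normal libraries, and Pmp22 averaged 143 CPM in denervated and 96.2 CPM in normal libraries. Melanocyte, fibroblast, and pericyte and smooth muscle markers held no gene that passed. Closest were Dct and Kit, Col1a2 and Fbln1, and Cspg4 and Acta2 (adjusted p from 0.275 to 0.954).

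Downstream of the receptors, 3 signalling genes passed the test. Adcy6, an adenylyl cyclase that makes cAMP, was lower at 67.0, 68.7 and 60.1 CPM in denervated libraries, against 95.2, 90.9 and 68.6 CPM in normal ones. Pde4b, a phosphodiesterase that degrades cAMP, was higher at 481, 371 and 474 CPM in denervated libraries, against 367, 295 and 394 CPM in normal ones. Rgs2, a regulator that shortens Gq signals, was higher at 125, 125 and 124 CPM in denervated libraries, against 95.1, 100 and 104 CPM in normal ones. All 3 animals moved the same way in each gene. The groups did not overlap in Rgs2, and they overlapped in Adcy6 and Pde4b.

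In the fit with the animal as block, Adcy6 fell (log2 fold change −0.37 ± 0.09 SE, adjusted p = 0.0330), and Pde4b (0.33 ± 0.08 SE, adjusted p = 0.0325) and Rgs2 (0.33 ± 0.07 SE, adjusted p = 0.0325) rose. Without the animal as block none of the 3 passed (adjusted p = 0.245, 0.343 and 0.163), but that fit called no gene at all. They were also lost without animal 890 (adjusted p = 0.0715, 0.103 and 0.0585) and without animal 892 (0.201, 0.143 and 0.144), and the rises of Pde4b and Rgs2 were lost with library totals (0.0691 and 0.0720). DESeq2 with the block called all 3 (0.0281, 0.000862 and 0.0134), and limma on log2(TPM + 1) called none of them (0.224, 0.124 and 0.153). That limma fit called hardly any gene at all.

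**Figure D4:**
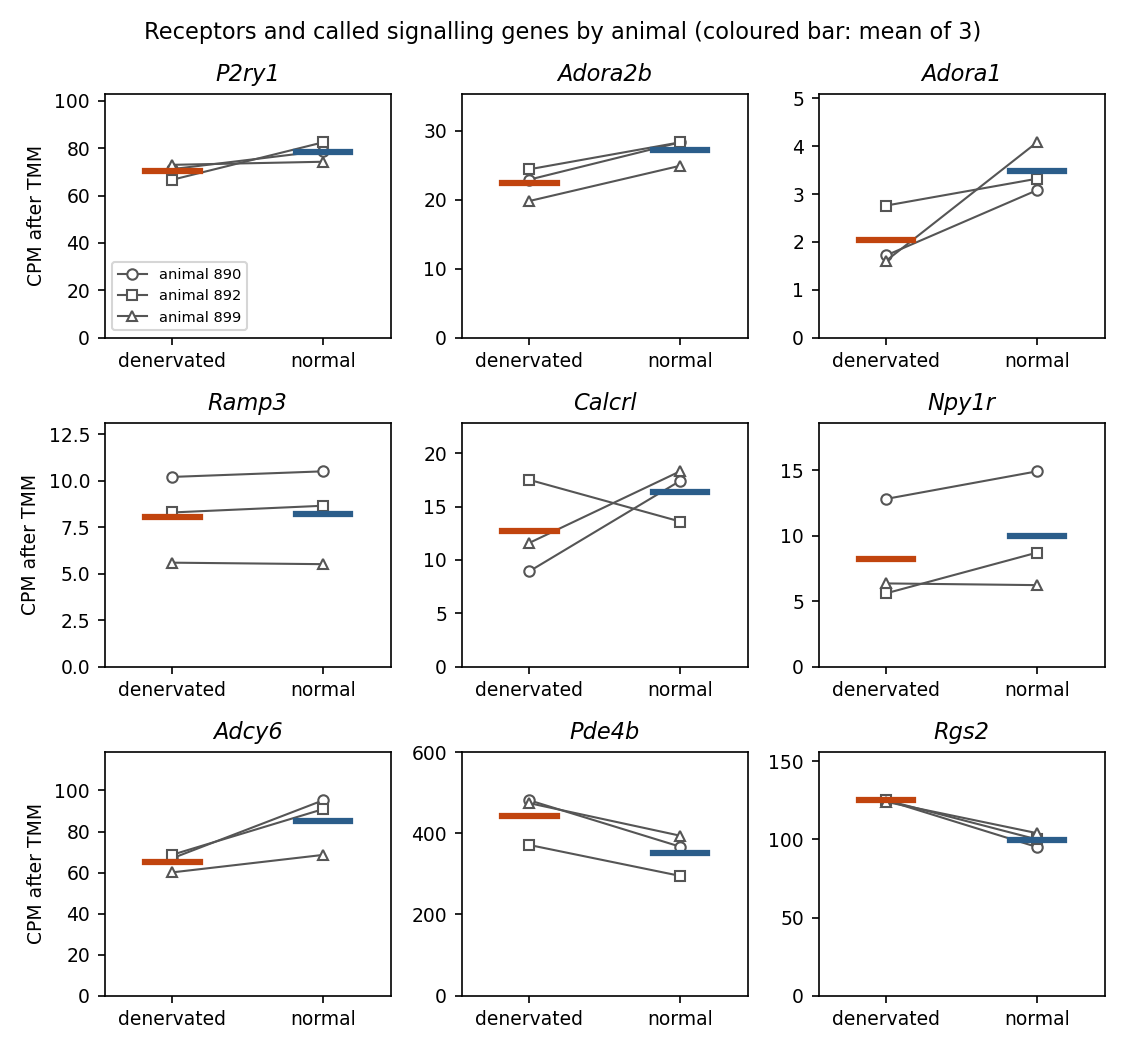
CPM after TMM scaling (y axes, from 0) of 6 receptor genes and the 3 called signalling genes in denervated and normal skin (x axis), with a line joining the sides of each animal and a coloured bar for the mean of 3. Adora2b is lower and Rgs2 higher on the denervated side in each animal, while Ramp3 and Calcrl run in both directions.

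No other tested gene of the lists these belong to passed. Of 21 tested cyclases, phospholipases and kinases 1 fell and none rose (median log2 fold change 0.04). Of 5 tested phosphodiesterases 1 rose (median 0.11), and of 18 tested receptor kinases, arrestins and RGS proteins 1 rose (median −0.07). No gene passed among 12 tested G protein alpha subunits (median 0.06), where Gna13 and Gna14 had the smallest p (adjusted p = 0.242 and 0.302). The corresponding share of all genes is the 3.46% given above, and their median is −0.02.

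Genes that make, release and clear the transmitters were also measured. Of 8 tested ligand genes none passed, with Lypd6b, of the Ly6 family that binds nicotinic subunits, and Adm, which encodes adrenomedullin, closest (adjusted p = 0.259 and 0.319). Adm, the ligand of the Calcrl and Ramp3 pair, was itself measured in these libraries, at 60.0 ± 4.77 CPM in denervated and 53.4 ± 5.27 CPM in normal libraries (SD, n = 3 each). Of the CGRP genes, Calcb passed the filter too, at 5.21 ± 1.89 CPM in denervated and 4.91 ± 0.252 CPM in normal libraries. Calca had 1 count in all. Of 4 tested genes of synthesis, transport and release none passed. Slc6a2, the transporter that takes up noradrenaline, stood at 66.0, 58.2 and 74.0 CPM on the denervated side and 75.5, 71.1 and 74.6 CPM on the normal side (adjusted p = 0.320), and Slc17a9, which loads ATP into vesicles, at 2.07 ± 0.524 CPM in denervated and 2.48 ± 0.496 CPM in normal libraries (SD, n = 3 each, adjusted p = 0.727).

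Of 16 tested clearing enzymes and transporters none passed. Ache, the esterase that splits acetylcholine, was at 15.6, 21.6 and 15 CPM in denervated and 24.0, 24.1 and 20.7 CPM in normal libraries (log2 fold change −0.41 ± 0.13 SE, adjusted p = 0.106), and it was lower on the denervated side in all 3 animals, with overlapping groups. Slc29a2, a nucleoside transporter, averaged 12.0 CPM in denervated and 9.38 CPM in normal libraries (adjusted p = 0.250). The list of accessory proteins of nicotinic receptors also held Mesd, a chaperone of LDL receptor family proteins, and none of its 4 tested genes passed. Ric3, a chaperone of nicotinic receptors, had a log2 fold change of −0.78 ± 0.43 SE (adjusted p = 0.366), and Mesd of −0.22 ± 0.12 SE (adjusted p = 0.357).

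The authors' deposited table lists all 70 genes and gives an adjusted p for 2 of them, neither below 0.05. P2ry1 has a log2 fold change of −0.12 (adjusted p = 0.679) and Adora2b of −0.30 (adjusted p = 0.370) in the authors' deposited table.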

How the data were processed

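Both sides of each mouse came from the same animal, per the labels' protocols. Whole-number counts per gene came from the authors' deposited matrix. Estimated counts and TPM came from a deposited file per sample, per the file headers, and the authors also deposited TPM in 1 table. The authors' deposited comparison gives log2 fold changes, p-values and test scores. Without saying what each did, the submitters' processing notes list STAR 2.6.1a, Salmon 0.11.2 and the mm10 build. The library kit keeps strand, per the labels' protocols, but the counter, its annotation and whether it used strand were not stated.

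Levels between genes were compared in TPM. Differences were tested with edgeR 4.0.16 (R 4.3.3) on the counts with TMM factors, filterByExpr (minimum count 10, total 15), the animal as block and Benjamini-Hochberg adjustment below 0.05. SE was taken as |log2 fold change| divided by √F, and intervals (95%) use the moderated degrees of freedom. The common biological coefficient of variation was 0.0920. The test was tried on simulated counts. Alternatives were no block, other scalings and filters, DESeq2 1.42.0, limma 3.58.1 on log2(TPM + 1) or log2(TPM + 0.1) for genes averaging at least 1 TPM, estimated counts rounded to whole numbers, and each animal left out. The numbers pair the samples, with deviations from group means correlating at 0.356, 0.361 and 0.443 across genes for the same animal, which are not independent. Within each group no library was a copy of another (chi-square over degrees of freedom 12.2 to 18). Libraries of different groups were not compared in this way.

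Members were chosen by symbol, and they and the lists with earlier results of these data known. A single member is not reported here and is left out of the counts of members, though it stayed in the fit. Every described member that passed the filter is named. From each list up to 4 called genes or the 2 with the smallest p are named, and other list genes named for their levels were chosen after their values were seen. The test between animals was added after the values were seen. Exon overlaps come from GENCODE M21 on mm10.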

Additional observations from a re-analysis of the deposited data

How the results depend on the processing

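With and without the replicate block, 0 receptor genes were called, as with DESeq2 size factors, library totals, no filter, a filter of 1 CPM, the DESeq2 test, both limma fits, the estimated counts and a threshold of 0.1. Leaving out 1 animal gave 0 to 1 (Calcrl without animal 892 and P2rx7 without animal 899). Over all genes the paired fit called 426, against 0 without the block, 987 with no filter, 1 with limma at either pseudocount, 820 at a threshold of 0.1, and 248 to 976 with 1 animal left out (248 without animal 892, 976 without animal 899). Scaling by library totals called 172 higher and 118 lower, against 355 and 71. Receptor genes at or above 0.5 TPM numbered 21, against 12 at 1 TPM, and 18 to 25 passed the filter at minimum counts of 20 and 5. The cause of these shifts was not tested. Some log2 fold changes turned sign, none with an adjusted p below 0.05. Scaling by library totals gave −0.024 for Acta2 and −0.049 for Krt5. The limma fits with pseudocounts of 1 and 0.1 gave −0.019 and −0.023 for P2rx4, −0.070 and −0.097 for Acta2 and −0.040 and −0.040 for Krt5, and the estimated counts gave −0.074 for Acta2 and −0.010 for Krt5. Leaving out 1 animal at a time gave ranges of −0.29 to 0.34 for Adrb1, −0.055 to 1.10 for P2rx2, −0.21 to 0.59 for P2rx3, −0.086 to 0.20 for P2rx4, −1.18 to 0.15 for P2ry10, −0.38 to 1.15 for P2ry2, −0.048 to 0.0062 for Ramp3, −0.30 to 0.0044 for Cspg4, −0.036 to 0.16 for Acta2, −0.031 to 0.11 for Krt5 and −0.14 to 0.11 for Lgr6. The 95% intervals of the receptors were 0.36 to 2.50 log2 units wide, and the parts of depth and of variation between animals in that width were not tested.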

Other observations

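Receptors for other transmitters were sparser. Of 101 further genes for serotonin, dopamine, histamine, glutamate, GABA, glycine, melanocortin and other peptide receptors, 12 passed the filter and none passed the test (median log2 fold change −0.15). The smallest p fell to Gabrp, a subunit of GABA-gated channels, at 18.9, 28.9 and 13.8 CPM on the denervated side and 24.4, 37.6 and 16.5 CPM on the normal side. It was lower on the denervated side in each animal, with animals further apart than sides (log2 fold change −0.34 ± 0.11 SE, adjusted p = 0.118, edgeR). Oxtr, the oxytocin receptor, averaged 4.06 ± 1.43 CPM in denervated and 5.89 ± 0.489 CPM in normal libraries (SD, n = 3 each, adjusted p = 0.230, edgeR).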
